A study of Mus musculus with 4 samples.

Results

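The genes described here are Ccr9 and its neighbours in gene order on mouse chromosome 9, from Sacm1l to Xcr1. They are Sacm1l, Slc6a20b, Slc6a20a, Lztfl1, Ccr9, Fyco1, Cxcr6 and Xcr1. All 19 probe sets whose only gene symbol in the platform annotation is one of these 8 genes were taken, out of 45037 probe sets and 18193 named genes. The stretch was chosen on the difference between treated and control arrays of Ccr9, Slc6a20a and Lztfl1, which stood among the largest increases, and the other genes by gene order. Their values under treatment are therefore a description, with no test.

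Expression was measured on Affymetrix GeneChip arrays in T29, a mouse thymic lymphoma cell line, with 2 arrays per group. The control group was exposed to DMSO, the solvent, and the other group to MRK003, which inhibits gamma-secretase and is called GSI here, for 36 h at a dose that the labels give as 5 mM. The labels give the same treatment text for all 4 samples, so the groups rest on the sample titles, and the unit of the dose could not be checked. T29 is the only line, and nothing in the labels says whether replicates were separate cultures, so the spread given here may be technical.

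Gamma-secretase cuts proteins within the membrane. Its substrates include the Notch receptors, and the piece it frees from them regulates transcription in immature T cells. Ccr9 encodes the receptor for the chemokine CCL25, which is made in the thymus and the small intestine, and guides T cell progenitors, thymocytes and gut-homing lymphocytes. Cxcr6 and Xcr1 encode chemokine receptors as well, the former for CXCL16 and found on activated and tissue-resident T cells, the latter for XCL1 and typical of cross-presenting dendritic cells. The other 5 genes of the neighbourhood belong to unrelated families. Sacm1l encodes a lipid phosphatase of the endoplasmic reticulum and Golgi, Slc6a20a and its tandem relative Slc6a20b transporters of the SLC6 family, Lztfl1 a regulator of the BBSome, which moves proteins in and out of cilia, and Fyco1 an adaptor that ties autophagosomes to kinesin motors.

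With GSI, mean expression was 2-fold or more above that with DMSO for 4 of these genes, Slc6a20a, Lztfl1, Ccr9 and Cxcr6, of which Cxcr6 did not pass the threshold used over all probe sets. The brightest Ccr9 probe set was 13.3-fold higher, the Slc6a20a probe set 13.2-fold, the brightest Lztfl1 probe set 5.60-fold and both Cxcr6 probe sets 3.81-fold and 3.78-fold. The Slc6a20a and Cxcr6 values with DMSO lay below the array medians, so the sizes of those folds are uncertain. In bulk RNA, more RNA per cell and more cells that make it cannot be told apart. Sacm1l and Fyco1 had log2 differences of 0.23 to 0.66. Slc6a20b and Xcr1 were dim on all 4 arrays, with groups that overlapped. Slc6a20a, Lztfl1 and Ccr9 follow one another in the gene order, and Cxcr6 lies within the span of the next gene, Fyco1.

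The promoters of the 4 genes with the largest differences and of Slc6a20b, the dim neighbour of Slc6a20a, are shown so that the sequences before their starts can be compared. They are the RefSeq windows of build GRCm38.p6, 300 bases each, from 250 bases before the annotated start to 50 bases from it, written 5′ to 3′ on the strand of the gene. Capitals mark every CANNTG, the E-box letters that E proteins and other basic helix-loop-helix factors can bind.
Ccr9 promoter, chr9:123766961-123767260, plus strand: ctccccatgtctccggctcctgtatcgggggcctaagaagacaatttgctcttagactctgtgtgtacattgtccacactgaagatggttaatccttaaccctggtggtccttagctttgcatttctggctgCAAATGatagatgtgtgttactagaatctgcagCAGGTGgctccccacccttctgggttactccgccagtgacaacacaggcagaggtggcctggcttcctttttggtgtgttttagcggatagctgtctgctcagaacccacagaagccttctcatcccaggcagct
Lztfl1 promoter, chr9:123717576-123717875, minus strand: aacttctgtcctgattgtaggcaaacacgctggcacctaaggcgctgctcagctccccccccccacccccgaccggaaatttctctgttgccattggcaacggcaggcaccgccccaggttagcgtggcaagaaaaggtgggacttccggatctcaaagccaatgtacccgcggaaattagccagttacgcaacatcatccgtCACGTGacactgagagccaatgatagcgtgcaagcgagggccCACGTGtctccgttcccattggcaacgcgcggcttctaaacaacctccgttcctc
Slc6a20a promoter, chr9:123678783-123679082, minus strand: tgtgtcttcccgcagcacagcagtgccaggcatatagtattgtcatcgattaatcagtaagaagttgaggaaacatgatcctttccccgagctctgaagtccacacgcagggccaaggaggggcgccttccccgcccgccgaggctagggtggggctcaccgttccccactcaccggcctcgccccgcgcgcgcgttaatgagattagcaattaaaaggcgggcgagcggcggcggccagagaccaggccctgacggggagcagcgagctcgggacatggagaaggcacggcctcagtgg
Slc6a20b promoter, chr9:123632489-123632788, minus strand: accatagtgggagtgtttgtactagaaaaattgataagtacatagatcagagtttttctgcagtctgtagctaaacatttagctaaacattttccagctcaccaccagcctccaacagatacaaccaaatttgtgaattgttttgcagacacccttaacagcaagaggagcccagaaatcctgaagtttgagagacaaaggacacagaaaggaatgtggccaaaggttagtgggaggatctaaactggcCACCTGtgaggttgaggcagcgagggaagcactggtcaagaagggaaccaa
Cxcr6 promoter, chr9:123806227-123806526, plus strand: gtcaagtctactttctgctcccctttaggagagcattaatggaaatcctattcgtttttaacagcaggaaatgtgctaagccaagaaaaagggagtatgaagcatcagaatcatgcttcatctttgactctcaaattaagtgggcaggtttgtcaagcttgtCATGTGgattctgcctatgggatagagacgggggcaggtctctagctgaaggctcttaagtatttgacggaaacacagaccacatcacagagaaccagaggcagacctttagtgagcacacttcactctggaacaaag
All 8 genes had a window, and Fyco1 had 2 that overlap, which gave 9 windows. CANNTG was found in 6 of them, against 72.3% of all 32851 windows in the table. The Ccr9 window held it at -118 (CAAATG) and at -85 (CAGGTG), counting the first base of the site from the annotated start. The Lztfl1 window held CACGTG at -47 and at -5, and the Cxcr6 window CATGTG at -88. The Slc6a20a window held none. CAGGTG, searched on both strands and a special case of CANNTG, was in 2 of the 9 windows, those of Ccr9 and Slc6a20b, against 20.2% of all windows. TGGGAA, the core letters that the Notch partner RBPJ can bind, was in 1 window, that of Lztfl1 on the opposite strand with its first base at 8, against 25.6% of all windows. TGTGGT, letters that RUNX factors can bind, was in 1 window, that of Cxcr6 on the opposite strand at -10, against 16.8%. The windows of Slc6a20a and Lztfl1 held 62.3% and 57.7% G and C bases, and those of Ccr9 and Cxcr6 51.3% and 44.3%.

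Values are log2 expression as deposited, and differences are the GSI mean minus the DMSO mean on that scale. Array medians lay between 4.86 and 4.89. The level of one probe set cannot be set against that of another, because probes differ in how strongly they bind. A probe set was called at an adjusted p under 0.05 (limma, Benjamini-Hochberg over all 45037 probe sets). In all, 427 were called higher and 201 lower with GSI. With any array left out, DMSO or GSI, replicate 1 or 2, limma called 0 probe sets, with a smallest adjusted p of 0.0533 to 0.305. Before adjustment, 2182 to 3553 were higher and 1757 to 3457 lower at p under 0.05 in these fits, which rest on 3 arrays and so have little power. In the same fits the differences were 3.51 to 4.13 for Ccr9 1421920_a_at, the largest increase, and 3.63 to 3.83 for Ccr9 1427419_x_at. They were 3.46 to 3.98 for Slc6a20a and 2.27 to 2.70 for Lztfl1 1417170_at. With 2 arrays per group, these ranges only restate the gaps between replicates. With all arrays, 8.17% of all probe sets were higher and 8.23% lower at p under 0.05 before adjustment. A list of 11 Notch target genes, chosen with earlier results of these data known, served as a treatment check that is not independent. Of its 19 probe sets, 10 were called lower and 0 higher (median -0.99), where 0.446% and 0.948% of all probe sets were. Before adjustment 17 of the 19 were lower and 1 higher at p under 0.05. The largest falls were those of Dtx1 (-3.53), Il2ra (-2.87) and Nrarp (-2.42), with adjusted p = 0.00125, 0.00271 and 0.00288 by limma. Each marker gene was read on 1 probe set, while shares over all probe sets count every probe set of a gene and are no like baseline. All 12 measured T cell markers of 16 listed lay above the array medians on all 4 arrays, where 47.5% of all probe sets did. That was so for 0 of 5 B cell, 0 of 4 natural killer cell, 2 of 6 dendritic cell, 2 of 6 myeloid, 1 of 7 epithelial and 2 of 5 stromal markers. Of the T cell markers 3 were called higher by limma, Cd8a (1.07, adjusted p = 0.0235), Cd8b1 (0.97, adjusted p = 0.0286) and Cd247 (0.81, adjusted p = 0.0275), and 0 lower. The uncalled ones went both ways without overlap. Rag2 (-0.75), Cd3g (-0.47), Cd3d (-0.30) and Cd3e (-0.14) were lower with GSI. Cd4 (0.75), Thy1 (0.53), Bcl11b (0.33), Ptprc (0.32) and Rag1 (0.11) were higher. Of the stromal markers Pecam1 was called higher (0.64, adjusted p = 0.0392) and Pdgfrb lower (-1.28, adjusted p = 0.0102). These were named after their values were seen. The dendritic list includes Xcr1, and its 2 bright members were Flt3 and Zbtb46. Uncalled, Flt3 (0.44) and Batf3 (0.24) were higher and Itgax (-0.23) lower without overlap, and Xcr1, Zbtb46 and Siglech overlapped. Of all probe sets, 21.3% lay higher with GSI without overlap and 25.2% lower, so a lack of overlap is common here. The log2 of the summed marker signal did not overlap between groups for 4 lists. It was 14.80 to 14.84 with DMSO and 14.92 to 14.93 with GSI for T cell markers, and 7.63 to 7.71 and 7.75 to 7.79 for dendritic markers. It was 9.12 to 9.25 and 8.65 to 8.67 for stromal markers, and 7.29 to 7.51 and 7.15 to 7.18 for epithelial markers. These sums do not stand for every marker of a list. Pdgfrb, the brightest stromal marker with DMSO, fell, Pecam1 rose, and the dim Col1a1, Col1a2 and Dcn overlapped. The epithelial Cdh1 read 5.61 and 4.29 with DMSO and 3.25 and 3.63 with GSI. Vil1 (-0.29), Krt5 (-0.26) and Krt18 (-0.17) were lower without overlap, Epcam (0.064) was higher, and Krt8 and Foxn1 overlapped. Of the myeloid markers, whose summed signal overlapped, Itgam (1.05), S100a8 (0.13) and Lyz2 (0.11) were higher without overlap and Cd14 (-0.22) lower. Csf1r and Adgre1 overlapped, and no myeloid marker was called. The Itgam values lay below the array medians on all 4 arrays. How far the summed marker signals bear on the values of the neighbourhood was not tested.

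Of the 19 probe sets of the neighbourhood, 8 were called higher with GSI and 0 lower, where 0.948% of all probe sets were called higher and 0.446% lower. The calls repeat the values on which the stretch was chosen, so nothing is read from their number. They belong to Ccr9, with 3 of 5 probe sets called, Lztfl1, with 4 of 5, and Slc6a20a, with its only probe set. On 15 of the 19, both GSI arrays lay above both DMSO arrays, where 21.3% of all probe sets did so and 25.2% lay the other way, and on the other 4 the groups overlapped. By size of the increase over all 45037 probe sets, those of the neighbourhood held ranks 1 to 4 and 6 to 7. The called probe set with the smallest difference was 1460200_s_at of Lztfl1, at 2.04, and the uncalled one with the largest was 1422812_at of Cxcr6, at 1.93.

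**Figure D1:**
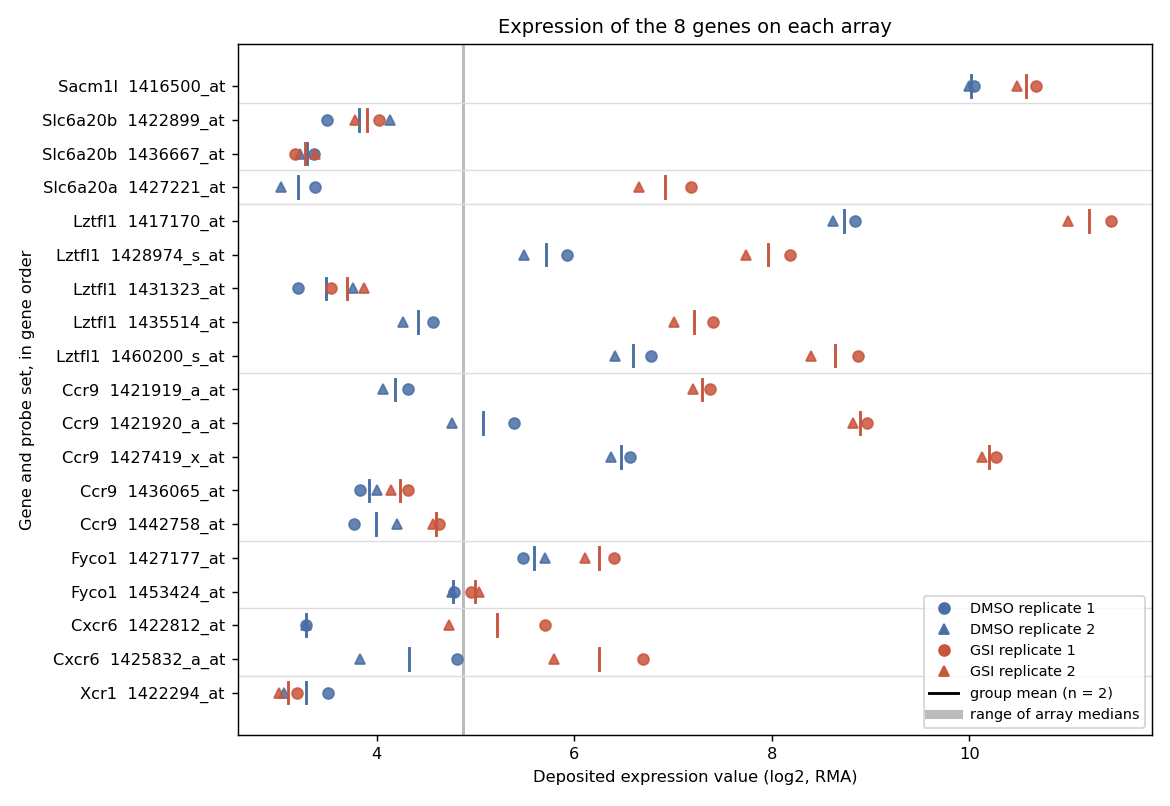
Deposited log2 expression of the 19 probe sets of the 8 genes, in gene order from top to bottom, with circles for replicate 1, triangles for replicate 2, short lines for the group means (n = 2) and a grey band for the range of array medians. On 10 probe sets, of Slc6a20a, Lztfl1, Ccr9 and Cxcr6, the groups do not overlap and their means differ by 1.92 or more, while those of Slc6a20b and Xcr1 overlap at the dim end.

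Ccr9 was measured by 5 probe sets. Probe set 1427419_x_at read 6.57 and 6.37 with DMSO and 10.27 and 10.12 with GSI. Its group means were 6.47 ± 0.14 and 10.20 ± 0.11 (SD, n = 2), a difference of 3.73 (SE 0.12). Both GSI arrays were high, and the nearest values of the groups lay 3.55 apart. On 1421920_a_at the values were 5.39 and 4.76 with DMSO and 8.96 and 8.82 with GSI, a difference of 3.82 (SE 0.21), the largest increase of any probe set on the arrays. On 1421919_a_at they were 4.32 and 4.06 with DMSO and 7.37 and 7.20 with GSI, a difference of 3.10 (SE 0.13). These 3 probe sets thus gave increases between 8.57-fold and 14.1-fold. Both DMSO values of 1421919_a_at and the lower one of 1421920_a_at lay below the array medians, so both ends of this range are uncertain in size. In Affymetrix naming the ending _a_at marks probes shared by transcripts of a gene, and _x_at probes that can also bind other transcripts.

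The other Ccr9 probe sets stayed below the array medians on all 4 arrays. Probe set 1442758_at read 3.77 and 4.20 with DMSO and 4.63 and 4.57 with GSI, and 1436065_at 3.83 and 4.01 with DMSO and 4.32 and 4.15 with GSI. Neither was called, although the groups did not overlap, and their differences were 0.61 (SE 0.16) and 0.32 (SE 0.11). The 5 probe sets of the gene thus point the same way but range from 1.24-fold to 14.1-fold. Which part of the transcript each reads was not analysed here.

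Slc6a20a, which encodes a transporter of proline and other imino acids, best known from kidney, intestine and brain, had 1 probe set, 1427221_at. It read 3.37 and 3.03 with DMSO, below the array medians, and 7.19 and 6.66 with GSI, above them. The group means were 3.20 ± 0.24 and 6.92 ± 0.37 (SD, n = 2), a difference of 3.72 (SE 0.20) and the third largest increase on the arrays. Because the DMSO values are dim and log2 values of this kind compress differences near background, the fold is uncertain in size.

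Slc6a20b, the neighbouring relative of Slc6a20a, showed no such difference. Probe set 1422899_at read 3.50 and 4.13 with DMSO and 4.03 and 3.78 with GSI, and 1436667_at 3.36 and 3.22 with DMSO and 3.17 and 3.38 with GSI. All 8 values lie below the array medians and the groups overlap. The differences were 0.087, with a 95% interval of -0.45 to 0.63 in the fit, and -0.016, with an interval of -0.30 to 0.27. Changes of the size seen for Slc6a20a lie outside these intervals, but a dim probe set may fail to report a transcript. The relatives may share probes, and the difference between them was not tested.

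Lztfl1 was the neighbour with the most probe sets besides Ccr9. Probe set 1417170_at read 8.84 and 8.62 with DMSO and 11.43 and 11.00 with GSI, a difference of 2.48 (SE 0.17). Probe set 1435514_at read 4.57 and 4.27 with DMSO and 7.41 and 7.01 with GSI, the largest difference of the gene at 2.79 (SE 0.17). On both, the GSI arrays stood clear of the DMSO arrays, by 2.15 and 2.44 between the nearest values. Probe set 1428974_s_at went from 5.93 and 5.49 to 8.19 and 7.74, a difference of 2.25 (SE 0.20), and 1460200_s_at from 6.77 and 6.41 to 8.88 and 8.40, a difference of 2.04 (SE 0.20). These 4 thus ranged from 4.13-fold to 6.92-fold. The upper end is uncertain in size, because both DMSO values of 1435514_at lay below the array medians. Whether the probes of 1428974_s_at and 1460200_s_at can also bind other transcripts was not analysed here. The fifth, 1431323_at, was dim at 3.21 and 3.76 with DMSO and 3.53 and 3.87 with GSI, and its groups overlapped (difference 0.22, SE 0.21). Of the 5, 3 lay above the array medians already with DMSO.

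Cxcr6 lies within the span of Fyco1 on the opposite strand in GRCm38.p6. Its 2 probe sets gave close differences, 1.93 (SE 0.30) on 1422812_at and 1.92 (SE 0.40) on 1425832_a_at, and neither was called. All 4 DMSO values lay below the array medians, so the folds are uncertain in size. For the former the values were 3.29 and 3.29 with DMSO and 5.71 and 4.73 with GSI. For the latter they were 4.82 and 3.84 with DMSO and 6.70 and 5.79 with GSI. The groups did not overlap on either, but GSI replicate 1 exceeded GSI replicate 2 by 0.98 and 0.91. On the other 17 probe sets the GSI arrays lay closer together. Without GSI replicate 1 the differences were 1.44 and 1.47, and without GSI replicate 2 they were 2.42 and 2.37.

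Fyco1, whose span holds Cxcr6, differed far less than Cxcr6. Probe set 1427177_at read 5.48 and 5.70 with DMSO and 6.40 and 6.10 with GSI, a difference of 0.66 (SE 0.14), and 1453424_at read 4.78 and 4.76 with DMSO and 4.95 and 5.04 with GSI, a difference of 0.23 (SE 0.093). On both the GSI arrays were the higher ones without overlap, and neither was called. Sacm1l, at the other end of the neighbourhood, was bright throughout, at 10.04 and 10.00 with DMSO and 10.67 and 10.48 with GSI. Its difference of 0.55 (SE 0.11), 1.47-fold, was not called. Xcr1 was dim, at 3.50 and 3.06 with DMSO and 3.20 and 3.01 with GSI, with overlapping groups and a difference of -0.18 (SE 0.17, 95% interval -0.59 to 0.24).

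The neighbourhood was set against the genes beyond it, which were taken by gene order alone. They were the 15 nearest measured genes before Sacm1l and all 7 measured genes that the annotation lists after Xcr1 on the chromosome. Of their 36 probe sets, 0 were called by limma, where 1.39% of all probe sets were called in either direction. Before adjustment, 2 were higher and 4 lower at p under 0.05, against 8.17% and 8.23% of all probe sets. The differences ran from -0.56 to 0.34 with a median of -0.048, against -0.012 over all probe sets. Limd1, which encodes a LIM-domain scaffold protein and precedes Sacm1l, differed by -0.092 and 0.16 on its 2 probe sets (limma, adjusted p = 0.685 and 0.450). Ccr1, the chemokine receptor gene that follows Xcr1, was dim and differed by 0.048 and -0.018 (limma, adjusted p = 0.881 and 0.968), signs that turned under other settings. The 95% intervals of these 4 differences together spanned -0.31 to 0.39. The nearest measured genes outside the neighbourhood thus showed none of its large differences. However, 12 of the 36 flanking probe sets, both of Ccr1 among them, lay below the array medians on all 4 arrays. Such dim probe sets may fail to report a transcript. The annotation also lists Gm10052, Gm17021 and Gm51700 between the members, and these were not analysed here.

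**Figure D2:**
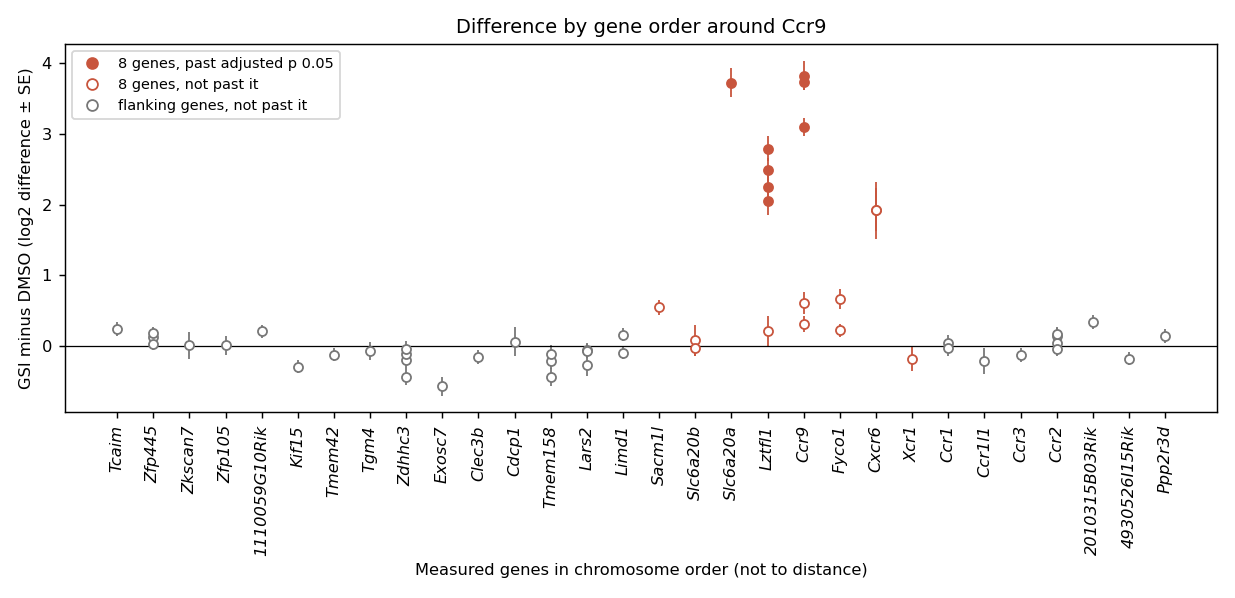
Log2 difference between GSI and DMSO means (± SE of the limma fit) for each probe set of the 8 genes and of the 22 flanking genes, in chromosome order with equal spacing rather than to distance, filled where called. Filled points are found over Slc6a20a, Lztfl1 and Ccr9, the Cxcr6 points lie at 1.93 and 1.92, and all 36 flanking points lie between -0.56 and 0.34.

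The genes also differed in how the arrays of a group varied. The choice of genes did not use this measure, but the probe sets are split here by the size of the increase, which it did use. On all 10 probe sets with a 2-fold or larger increase, replicate 1 read above replicate 2 among the GSI arrays, by 0.14 to 0.98. Among the DMSO arrays it did so by more than 0.01 on 9 of the 10, by up to 0.98, and the Cxcr6 probe set 1422812_at read the same on both. Over all probe sets, replicate 1 was above replicate 2 in both groups on 26.8%, and over the 247 probe sets with a 2-fold or larger increase on 46.6%. Of the other 9 probe sets of the neighbourhood, it was above in both groups on 2. The 10 probe sets belong to 4 genes and share the same 4 arrays, so they are not independent. Nothing in the labels ties the arrays with the same number, and over all probe sets the replicate differences of the groups correlated at 0.070, given as a description.

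**Figure D3:**
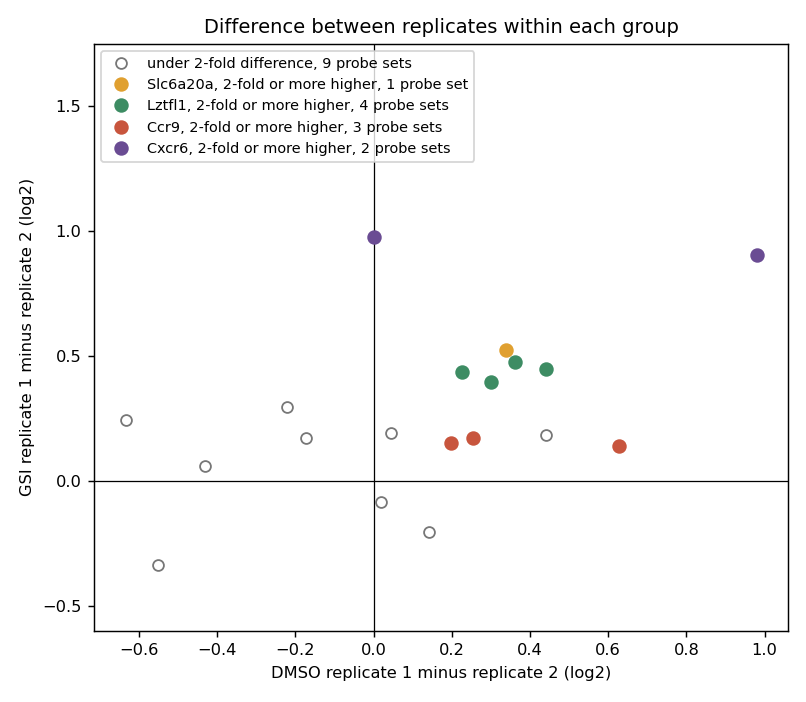
Difference between replicates 1 and 2 on the log2 scale with DMSO (horizontal) and with GSI (vertical) for the 19 probe sets, coloured by gene where the GSI mean was 2-fold or more above the DMSO mean. The 10 coloured points lie at or right of 0 and above 0, between 0.14 and 0.98 on the vertical axis, while the 9 open points scatter around 0.

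The probe sets most like the brightest one of Ccr9 were sought over the 4 arrays, by the root mean square distance between values centred on their own means. The nearest was that of Slc6a20a (0.14), followed by the 2 other bright Ccr9 probe sets (0.16 and 0.32) and Lztfl1 1435514_at (0.48). The nearest genes outside the neighbourhood were Cpa3, encoding a mast cell carboxypeptidase (0.53), Ms4a6b, encoding a membrane protein (0.63), the transcription factor gene Maf (0.65), Lgals1, encoding galectin-1 (0.80), and St6galnac5, encoding a sialyltransferase (0.83). Their differences were 2.80, 2.48, 2.45, 2.22 and 2.13. For Cpa3, Ms4a6b, Maf and Lgals1 replicate 1 also read above replicate 2 in both groups, and for St6galnac5 below it in both. That order of replicates was thus also found outside the neighbourhood. However, the distance takes in the gaps between replicates, so the choice of these genes favoured it. Cxcr6 stood at distances of 0.95 and 0.98. The distance rests on 4 arrays of 2 groups and mostly ranks probe sets by how close their increase is to that of Ccr9.

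Genes related by family or function to the members were followed as lists, with counts over probe sets. Of 28 probe sets of 19 other chemokine receptor genes, 0 were called by limma, and before adjustment 2 were higher and 0 lower at p under 0.05, where 8.17% and 8.23% of all probe sets were. Their differences lay between -0.24 and 0.40 with a median of 0.016. The smallest p was that of Ccr4, a receptor of Th2 and skin-homing T cells, with 5.09 and 4.99 under DMSO and 5.44 and 5.43 under GSI (difference 0.40, limma, adjusted p = 0.126). Of the 28, 20 were below the array medians on all 4 arrays. The list holds Ccr1, Ccr1l1, Ccr2 and Ccr3, which are also among the flanking genes.

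Of 5 probe sets of the ligand genes Ccl25, Cxcl16 and Xcl1, 0 were called by limma, 0 had a p under 0.05 before adjustment, and the median was -0.10. Ccl25, the ligand gene of Ccr9, differed by -0.12 (limma, adjusted p = 0.624) on probe set 1418777_at. Of 31 probe sets of 17 other SLC6 transporter genes, 0 were called by limma. Before adjustment 1 was higher and 3 were lower at p under 0.05 (8.17% and 8.23% of all probe sets), and the median was 0.027. The smallest p was that of Slc6a8, the creatine transporter gene (difference 0.44, limma, adjusted p = 0.179).

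The BBSome genes were the partner list of Lztfl1. Of 14 probe sets of 8 genes 1 was called higher and 0 lower, where 0.948% and 0.446% of all probe sets were, with a median of 0.047. It was 1456393_at of Bbip1, a small BBSome subunit gene, which read 9.97 and 10.01 with DMSO and 11.00 and 10.77 with GSI (difference 0.89, SE 0.11, limma, adjusted p = 0.0305). The other probe sets of Bbip1 differed by -0.29 and 0.15, and the mean of all of them did not pass (0.25, adjusted p = 0.149 by limma).

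Of 22 probe sets of 7 genes encoding functional partners of FYCO1, 0 were called by limma. Before adjustment 7 were higher and 0 lower at p under 0.05 (8.17% and 8.23% of all probe sets), and the median was 0.11. Map1lc3b, encoding an LC3 protein of autophagosome membranes, read 10.09 and 10.14 with DMSO and 10.63 and 10.76 with GSI on 1415928_a_at (difference 0.58, limma, adjusted p = 0.0637). Over the settings that kept all 4 arrays its adjusted p by limma lay between 0.00474 and 0.151. It passed with cyclic loess, with dim probe sets left out and with a robust prior that followed intensity, and did not with arrays centred on their medians, with the replicate block, by the brightest probe set or as the mean of probe sets. Of 22 probe sets of 9 genes linked to phosphatidylinositol 4-phosphate, the lipid that the Sacm1l product dephosphorylates, 0 were called by limma. Before adjustment 0 were higher and 2 lower at p under 0.05 (8.17% and 8.23% of all probe sets), and the median was -0.015. The smallest p was that of the lipid kinase gene Pi4k2b (difference -0.32, limma, adjusted p = 0.173).

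**Figure D4:**
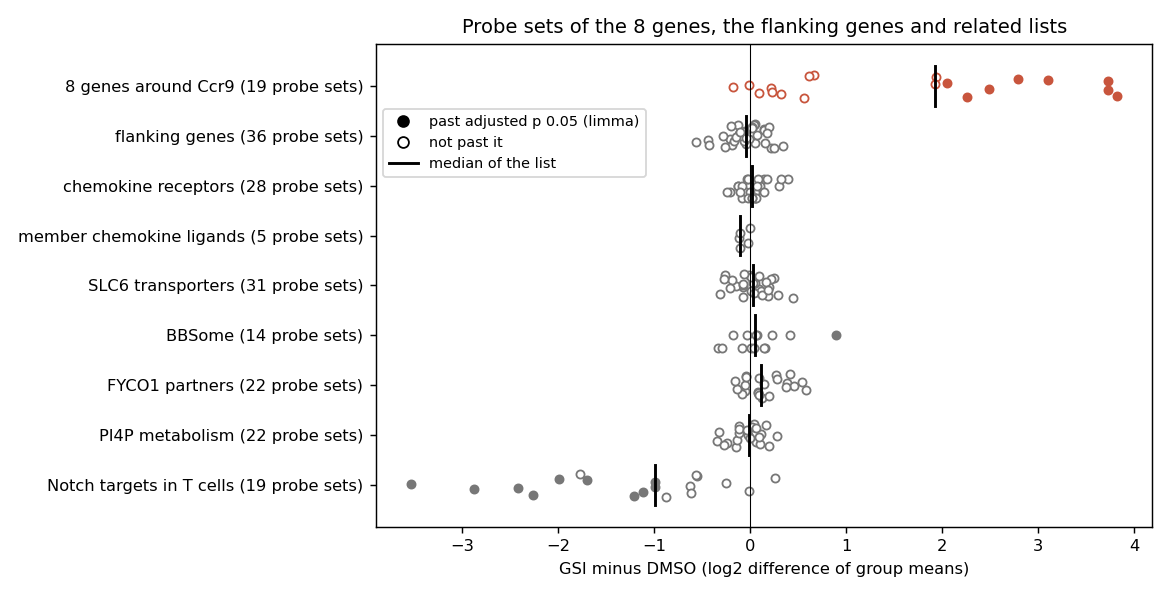
Log2 difference between GSI and DMSO means for every probe set of the 8 genes, the flanking genes and the 7 related lists, filled where called, with a black line at each median. Apart from the Notch target list, whose median was -0.99, the medians of the lists lay between -0.10 and 0.11, and that of the 8 genes was 1.92.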

How the data were processed

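The authors deposited 1 log2 expression value per probe set and array, made with RMA per the submitters' processing notes. The RMA version is not given in the sources used here, and probe-level files were not used. RMA compresses differences of dim probe sets, and normalizing between arrays presumes that few genes change in the same direction. Of 45101 probe sets, 64 controls were left out. Symbols were updated through gene identifiers to RefSeq (GRCm38.p6) for 34741 of 34945 probe sets with 1 symbol.

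Each probe set was fitted with limma 3.58.1 in R 4.3.3 (lmFit, eBayes, group as the only term, two-sided, 5.77 total degrees of freedom). Lists contributed up to 3 called genes with the largest change, or the gene with the smallest p. The 5 genes most like Ccr9 left out unnamed gene models. The step was tested on simulated data. The neighbourhood, lists and rules were chosen with earlier results of these data known. The number of arrays limits the precision. Protein sequences were not analysed here.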

Additional observations from a re-analysis of the deposited data

How the results depend on the processing

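The number of probe sets called, 628, was 1556 with dim probe sets left out, 2372 with an intensity trend and robust prior, 310 with a 2-fold minimum and 65 with the replicate number as a block. With each array left out in turn the calls for all probe sets, the neighbourhood, the BBSome list and the Notch targets were lost. Each of these fits rests on 3 arrays, and why the calls were lost was not tested. Of the 19 probe sets of the neighbourhood, 8 to 12 were called under the settings that kept all arrays and tested probe sets, the same 8 among them each time. The replicate block, the 2 scalings and the trend each added Cxcr6, the trend and the filter added Sacm1l, and the trend added Fyco1. By the brightest probe set per gene 4 genes of the 8 were called, Sacm1l besides Slc6a20a, Lztfl1 and Ccr9. As the mean of probe sets 6 were called, Cxcr6 and Fyco1 as well. With the trend and robust prior, 1 flanking and 1 chemokine receptor probe set were called. The FYCO1 partner list had 1 call with cyclic loess, 2 without dim probe sets and 4 with the trend. The BBSome list had 0 as the mean of probe sets, with the replicate block and with the 2-fold minimum, and the Notch target list 5 with the replicate block. The replicate numbers share only a label, and the check of their deviations is in the report. The sign turned for uncalled differences near 0. With an array left out they ran from -0.23 to 0.40 and from -0.12 to 0.086 for Slc6a20b (the latter 0.0052 with cyclic loess), from -0.056 to 0.49 for Lztfl1 1431323_at and from -0.40 to 0.044 for Xcr1. For Ccr1, the difference on 1419609_at lay between -0.043 and 0.14 with an array left out. On 1419610_at it lay between -0.12 and 0.085 with an array left out, and was 0.013 with cyclic loess, 0.048 by the brightest probe set and 0.015 as the mean. For Limd1 it was 0.16 by the brightest probe set and 0.036 as the mean. The causes were not tested.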
